A study of Homo sapiens with 9 samples.

Results

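The transcriptome described here is that of AC16 cells that received vehicle alone, 3 of the 9 RNA sequencing samples of the study. The members are the 3 libraries whose labels give 0.1% DMSO over 72 h, and no treated library enters any value below. The other 6 libraries came from cells given CDDO-Me, a synthetic activator of the transcription factor NRF2, and by its title the study is about NRF2 and protection from doxorubicin. No vehicle library received CDDO-Me or doxorubicin. AC16 is an established human line made by fusing adult ventricular heart muscle cells with fibroblasts carrying SV40, and it divides in culture. The cells were grown as a monolayer in high-glucose DMEM with fetal bovine serum and used at low passage. The labels do not say whether the 3 replicates were separate cultures, so the spread between them may be technical.

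Heart muscle cells of the adult ventricle have left the cell cycle, carry sarcomeres of cardiac myosin, actin and troponin, and handle calcium through the ryanodine receptor, phospholamban and a calcium pump of the reticulum. Fibroblasts secrete and remodel the collagen-rich matrix, and smooth muscle and activated fibroblasts contract through non-sarcomeric actin and tropomyosin. A line fused from heart muscle and fibroblasts can carry programs of either parent, and the levels of the marker genes show which of them are read out under vehicle.

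Levels are given as TPM, a length-scaled share of the transcripts of a library, which divides each count by the exon length of the gene and scales each library to the same sum, so that genes can be compared with each other. A gene was called detected where it reached 1 TPM in each of the 3 libraries. Means are given ± SD over the 3 libraries (n = 3) throughout, and values given per library are those of replicates 1, 2 and 3 in that order. Where the length of the longest annotated transcript, in place of the merged exons, moved the mean of a gene by over 1.5 times, that mean is given beside it. No groups were compared and no test was run. The libraries held 19737357, 19382833 and 20570568 counts, and 1 read on 1000 bases was worth 0.214 to 0.231 TPM. Log2 TPM of detected genes correlated at Pearson r of 0.983 between replicates 1 and 2, 0.980 between 1 and 3, and 0.987 between 2 and 3, across genes, which are not independent replicates. Replicate 1 stood somewhat apart from the others: 34 and 48 of the 7287 detected genes of at least 20 TPM were over 2-fold apart between it and replicates 2 and 3, against 12 between replicates 2 and 3.

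Of 58299 genes in the table, 25766 had at least 1 read and 32533 (55.8%) had none. Detected genes numbered 13922 (23.9%), of which 11594 were protein-coding, 58.4% of the 19850 coding genes. The median level was 22.1 TPM over detected genes and 30.2 TPM over detected coding genes. No read fell on 4376 coding genes (22.0%). Mean levels reached 10 TPM in 9313 genes, 100 TPM in 2170 and 1000 TPM in 83. Gene positions are those of the deposited table, on GRCh38. Coding genes had their commonest levels between 10 and 100 TPM, while genes of other types with a read lay mostly under 1 TPM. The 810 most abundant genes held 50% of all TPM and 5623 genes held 90%. The gene types matched included no mitochondrial rRNA or tRNA, and none of the 30 most abundant genes lay on the mitochondrial genome. Transcripts of that genome may thus be missing from the counts. Ranks and shares of TPM, here and below, cover the counted genes only.

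**Figure D1:**
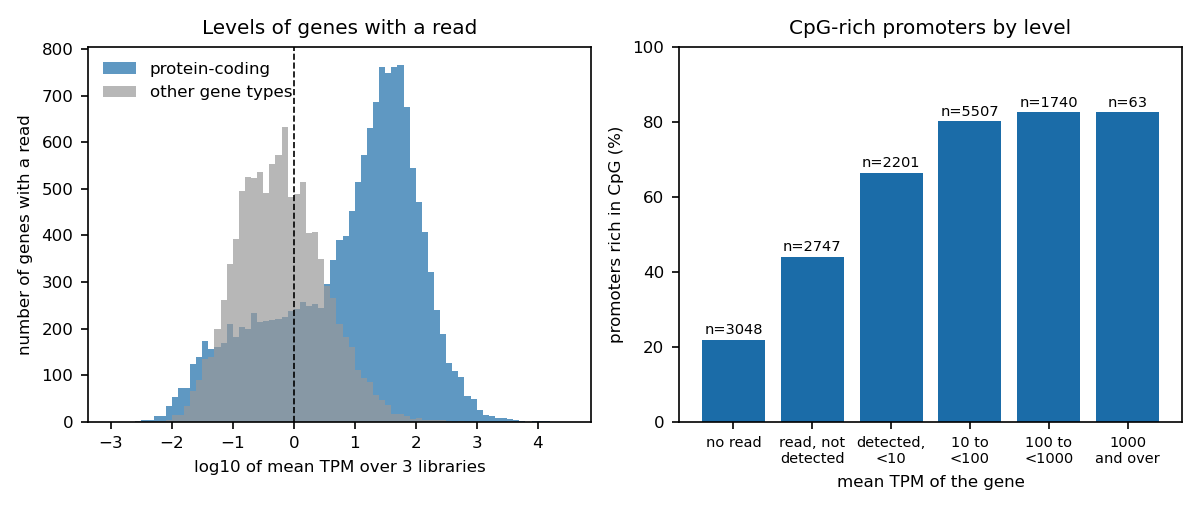
Left, number of genes with a read (y axis) by log10 of the mean TPM of the 3 vehicle libraries (x axis), for protein-coding genes and other gene types, with a dashed line at 1 TPM. Right, percentage of RefSeq promoters rich in CpG (y axis) by the mean TPM of the coding gene (x axis), with the number of genes above each bar; the share was 21.8% among genes with no read and 82.5% among genes of 1000 TPM and over.

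The 10 most abundant genes held 6.88% ± 0.221 of all TPM and the 100 most abundant held 21.0% ± 0.276. Among the genes counted, those of the cytoskeleton led. ACTB, the beta-actin of non-muscle cells (chr7:5527147-5563784), stood at 15517, 14833 and 13079.7 TPM (mean 14477 ± 1257), and was highest in every library. ACTG1, the non-muscle gamma-actin (chr17:81509971-81523847), followed at 11827, 9435 and 8957 TPM (10073 ± 1538). The ranges of the 2 actins did not overlap. TMSB10, a thymosin that binds actin monomers, had 9240.5 ± 875 TPM and FTL, the light chain of the iron store ferritin, 8635 ± 811 TPM. LGALS1, a galectin secreted by mesenchymal cells, stood at 5508 ± 186 TPM. Among the 30 most abundant genes were also TUBB and TUBB4B (beta-tubulins, 3980.1 ± 108 and 2487 ± 118 TPM), FLNA (a filamin that links actin filaments, 3049.5 ± 377 TPM), MYH9 (the heavy chain of non-muscle myosin, 2962 ± 289 TPM), PFN1 (profilin, 2516 ± 170.5 TPM) and CAVIN1 (a coat protein of caveolae, 2595 ± 222 TPM). Of the 30 most abundant genes, 29 were coding and together all 30 held 12.2% of TPM. The order within this group is loose: in 25 of 29 neighbouring pairs the ranges of the 3 libraries overlapped.

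Translation and glycolysis made up another large share. EEF1A1, which brings aminoacyl-tRNA to the ribosome, had 4833 ± 454 TPM, and EEF2, the translocase of elongation, 3419 ± 185 TPM. Of 86 cytosolic ribosomal protein genes 84 were detected, holding 5.63% ± 0.216 of TPM, with RPS2 at 3521 ± 76.7 TPM and RPL8 at 2765 ± 155 TPM. Of 32 glycolysis genes 23 were detected, led by GAPDH at 4214, 4489 and 4609 TPM (4437 ± 202), ENO1 at 2918 ± 127, TPI1 at 1843 ± 148 and PKM at 1716 ± 96.2 TPM (3467 by the longest transcript). These glycolysis genes held 1.56% ± 0.0870 of TPM, and 71.9% of the list was detected, against 58.4% of all coding genes. RPL41P1, annotated as a processed pseudogene of 81 bases, was 13th at 3234 ± 513 TPM from 1010, 1089 and 1438 counts. It is near-identical to a ribosomal protein gene and very short, so its level is uncertain, and the same holds to a lesser degree for the actin, tubulin and ferritin genes, which have processed copies elsewhere in the genome.

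The actins show most plainly which contractile program was read out. Of the 6 actin genes, the non-muscle pair made up nearly all of the family, and the 4 muscle actins together held 0.318, 0.189 and 0.199% of actin TPM in replicates 1, 2 and 3 (0.235% ± 0.0715). ACTG2, the gamma-actin of smooth muscle, had 66.3, 33.4 and 29.7 TPM, and ACTA2, the alpha-actin of smooth muscle and myofibroblasts, had 20.1, 11.7 and 13.4 TPM (mean 23.7 by the longest transcript). In both genes replicate 1 was the highest. ACTA1, the skeletal alpha-actin, stood at 0.150, 0.618 and 0.573 TPM, and ACTC1, the cardiac alpha-actin, at 0.628, 0.249 and 0.277 TPM, and neither was detected. The level thus spanned from 10073 ± 1538 TPM in ACTG1 to 0.385 ± 0.211 TPM in ACTC1 among genes that encode almost the same protein. The promoters of 4 actins are shown because these genes share a control element, the CArG box, which binds serum response factor (SRF), and yet differed this widely in level. SRF itself stood at 129, 133 and 117 TPM. Sequences are from RefSeq on GRCh38.p14, 5′ to 3′, 250 bases before and 50 bases after the most upstream start of each gene; ACTG1 lies at chr17:81512750-81513049, minus strand, ACTG2 at chr2:73892758-73893057, plus strand, ACTA1 at chr1:229434045-229434344, minus strand and ACTC1 at chr15:34795500-34795799, minus strand. Capitals mark CArG boxes and, in ACTA1 and ACTC1, a TATAAA in the window from 40 to 20 bases before the start.
ACTG1: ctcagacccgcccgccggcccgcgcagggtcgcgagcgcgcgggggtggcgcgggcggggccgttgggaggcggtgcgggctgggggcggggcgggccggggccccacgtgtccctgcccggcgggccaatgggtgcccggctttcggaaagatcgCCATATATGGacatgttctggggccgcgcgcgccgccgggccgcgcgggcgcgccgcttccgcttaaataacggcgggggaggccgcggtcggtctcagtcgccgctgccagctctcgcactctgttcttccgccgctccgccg
ACTG2: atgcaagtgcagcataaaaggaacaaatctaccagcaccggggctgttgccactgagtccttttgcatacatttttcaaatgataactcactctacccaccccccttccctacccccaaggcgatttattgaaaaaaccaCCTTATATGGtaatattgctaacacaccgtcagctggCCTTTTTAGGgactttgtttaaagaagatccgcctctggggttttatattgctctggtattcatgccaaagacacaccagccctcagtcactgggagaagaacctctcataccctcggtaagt
ACTA1: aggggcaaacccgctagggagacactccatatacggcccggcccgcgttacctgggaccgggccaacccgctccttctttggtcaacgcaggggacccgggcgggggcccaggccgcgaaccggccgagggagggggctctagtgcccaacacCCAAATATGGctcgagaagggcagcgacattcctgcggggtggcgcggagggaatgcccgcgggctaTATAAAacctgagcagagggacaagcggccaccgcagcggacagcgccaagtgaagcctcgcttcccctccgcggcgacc
ACTC1: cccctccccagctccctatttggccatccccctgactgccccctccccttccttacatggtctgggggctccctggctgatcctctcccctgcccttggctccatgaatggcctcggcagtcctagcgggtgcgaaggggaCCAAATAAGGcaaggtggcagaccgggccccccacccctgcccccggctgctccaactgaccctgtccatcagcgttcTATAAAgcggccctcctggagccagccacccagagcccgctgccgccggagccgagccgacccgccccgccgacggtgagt
Counted from the start, with no base 0, the CArG box began at base -94 in ACTG1, at -97 in ACTA1 and at -109 in ACTC1. ACTG2 held a pair of them, at -110 and -73. The TATAAA began at -30 in ACTA1 and at -31 in ACTC1. Among all 15306 coding genes matched to a promoter of this length, 1.24% held a CArG box on either strand and 3.70% a TATAAA in that window. These 4 promoters were shown because they hold a CArG box, so its presence in them cannot be set against the level. The genes that held it ran from 10073 ± 1538 TPM to under 1 TPM. No promoter entry was found for ACTB, the highest actin. ACTA2 had no such match in the window of its most upstream start. A match of letters is a description of the window and not evidence of binding.

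Promoter composition differed by level over all matched coding genes. A promoter was called CpG-rich where G and C made up at least 55% of its bases and CpG was at least 0.6 of its expected frequency. Of coding genes with no read, 21.8% of 3048 had a CpG-rich promoter. The share was 44.0% among genes with a read that were not detected, 66.5% among detected genes under 10 TPM, 80.1% from 10 to 100 TPM, 82.5% from 100 to 1000 TPM and 82.5% of 63 genes at 1000 TPM and over. The share over all matched genes was 60.4%. A GC box, GGGCGG on either strand, which binds SP1, was present in 28.7% of promoters of genes with no read and in 84.1% of those at 1000 TPM and over, against 59.1% of all; this motif overlaps in letters with CpG content. A TATAAA in its window did not follow the level in 1 direction: 8.60% of genes with no read, 0.981% of genes from 10 to 100 TPM and 14.3% (9 of 63) of genes at 1000 TPM and over held one. All 16 matched genes of the G1 and S phase list had a CpG-rich promoter, while 3 of 20 matched sarcomere genes and 4 of 40 matched interleukin genes did. Single lists did not all follow this order. Of well detected lists, 4 of 16 matched fibroblast and mesenchymal genes and 1 of 9 matched smooth muscle genes had a CpG-rich promoter. Among Wnt ligands and antagonists, with 9 of 34 detected, 20 of 25 matched genes had one.

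The sarcomere of heart muscle was largely absent. Of 29 cardiac sarcomere genes 4 were detected and 10 had no read in any library, and the list held 0.0229% ± 0.00395 of TPM. MYH6 and MYH7, the alpha and beta myosin heavy chains of the heart (chr14:23381990-23408277 and chr14:23412738-23435718), had no read; 3 counts in 1 library would have been 0.107 and 0.114 TPM, a limit that covers counting error only. TNNT2, cardiac troponin T, stood at 0, 0.127 and 0.147 TPM (mean 0.157 by the longest transcript), TNNI3, cardiac troponin I, at 0, 0.114 and 0 TPM, and ACTN2, the alpha-actinin of the Z disc, at 0, 0.0836 and 0.0387 TPM. These values rest on single reads up to a few reads per library. MYL2, MYL3, MYBPC3, CSRP3, TNNI1, LMOD2, SMPX and XIRP2 also had no read. TTN, titin, had 0.228 ± 0.0226 TPM. The 4 detected members were TPM1, an alpha-tropomyosin gene that non-muscle cells use too (215, 146 and 161 TPM, mean 403 by the longest transcript), MYPN, the Z-disc protein myopalladin (37.3, 40.6 and 40.7 TPM), ANKRD1, a stress-responsive repeat protein (16.7, 9.34 and 7.24 TPM), and TCAP, which caps titin (1.58, 2.40 and 1.11 TPM). MYPN was even across the libraries, while ANKRD1 was highest in replicate 1.

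Genes of cardiac calcium handling and excitation showed the same pattern, with 8 of 28 detected and 10 without a read. RYR2, the calcium release channel of the heart, PLN, phospholamban, CASQ2, calsequestrin, and TRDN, triadin, had no read, and for RYR2 the limit was 0.0390 TPM. ATP2A2, the SERCA2 calcium pump, was well expressed at 211, 202 and 189.8 TPM (201 ± 10.6, or 344 by the longest transcript), in a gene whose product also serves non-muscle cells. GJA1, connexin 43, stood at 286, 351 and 353 TPM and GJC1, connexin 45, at 57.8, 56.7 and 48.7 TPM. Lower levels were found for CACNA2D1, an auxiliary subunit of the L-type calcium channel (16.00 ± 1.24 TPM), JPH2, junctophilin 2 (6.82 ± 0.557 TPM), SLC8A1, the sodium-calcium exchanger (5.63 ± 0.626 TPM), and CACNA1C, the pore of the L-type channel (3.87 ± 0.401 TPM). HCN2, a pacemaker channel, had 4.21, 3.59 and 1.82 TPM.

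Of 20 genes of cardiac fuel use and secretion, 6 were detected, all under 10 TPM. FABP3, the fatty acid-binding protein of heart, had 7.48 ± 0.694 TPM, and CKMT2, a mitochondrial creatine kinase of muscle, 2.47 ± 0.209 TPM. The natriuretic peptide genes NPPB and NPPA stood at 5.82, 2.998 and 2.16 TPM and 2.80, 1.44 and 1.53 TPM, each highest in replicate 1. MB, myoglobin, CKM, muscle creatine kinase, PDK4, LPL and PGAM2 had no read. The limit for a count of 0 was 0.320 TPM for MB.

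Transcription factors of the heart were detected in 15 of 28 cases (53.6%), against 4 of 29 for the sarcomere. That share lay below the 58.4% of all coding genes and the 68.2% of all listed transcription factors. GATA4, a zinc finger factor of heart development, had 24.7, 24.9 and 25.7 TPM and its relative GATA6 49.9, 56.4 and 55.3 TPM. NR2F2, a nuclear receptor of atrial and mesenchymal cells, led with 422, 454 and 392 TPM. The T-box factors TBX3, TBX18, TBX2 and TBX20 had 43.4 ± 1.63, 20.5 ± 0.819, 11.5 ± 2.75 and 5.11 ± 0.496 TPM. MYOCD, the myocardin coactivator of SRF, had 9.90, 7.55 and 6.12 TPM, and MEF2A and MEF2D, 2 MADS-box factors, had 33.99 ± 1.86 and 37.1 ± 3.76 TPM. In contrast NKX2-5 (chr5:173232109-173235357), TBX5, ISL1, HAND1 and GATA5 had no read, MEF2C stood at 0.0571 ± 0.0204 TPM and HAND2 at 0.974 ± 0.175 TPM. For NKX2-5, 3 counts in 1 library would have been 0.331 TPM. Of the 7 defining markers of heart muscle, GATA4 was the 1 detected, so these markers went against a heart muscle identity of the cultured cells.

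Fibroblast and mesenchymal genes were the strongest marker list. Of 24 genes 23 were detected, and the list held 1.24% ± 0.0253 of TPM. COL1A1, the alpha 1 chain of type I collagen (chr17:50183289-50201632), had 4264, 4255 and 3667 TPM (4062 ± 342). COL1A2, its partner chain, had 1203, 1150.0 and 1110.3 TPM, and COL3A1, of type III collagen, 701, 1143 and 1135 TPM, with replicate 1 below the others. VIM, the intermediate filament vimentin, was even at 1664, 1615 and 1599.9 TPM. PDGFRB, a PDGF receptor of mural cells and fibroblasts, had 85.3, 87.7 and 86.3 TPM, THY1 254 ± 6.57 TPM and TWIST1, a mesenchymal factor, 266 ± 14.4 TPM. DCN, the proteoglycan decorin, was lower at 10.8 ± 5.40 TPM, and TCF21, a factor of cardiac fibroblasts, was at 1.61 ± 0.343 TPM. PDPN was the 1 member not detected (0.0593 ± 0.0578 TPM).

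Smooth muscle genes were partly present, with 10 of 12 detected. TPM2, beta-tropomyosin, had 1348, 1144 and 1087 TPM and TAGLN, transgelin, 403, 236 and 261 TPM. CNN1, calponin, stood at 53.1, 48.4 and 49.3 TPM, and SMTN, smoothelin, at 179, 133 and 121 TPM. MYH11, the smooth muscle myosin and the most specific marker of the list, was not detected at 0.181, 0.301 and 0.186 TPM (mean 0.371 by the longest transcript). Of 20 skeletal muscle genes the 4 detected were TNNT1, the troponin T of slow fibres, at 62.5, 91.03 and 83.4 TPM, ATP2A1, DMD and TNNC2; MYOD1, MYF5, MYOG and PAX7, the factors of skeletal myogenesis, had no read. TNNT1 and TNNC2 were the detected ones among 8 troponin genes, and no troponin I gene was detected.

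Markers of other tissues were mostly not detected, while the keratin KRT18 was high. Of 17 endothelial genes 2 were detected, TEK at 11.4 ± 1.13 and EGFL7 at 7.35 ± 1.19 TPM, while PECAM1, VWF and CDH5 stood at 0.232 ± 0.109, 0.222 ± 0.0368 and 0.0125 ± 0.0217 TPM. Of 14 epithelial genes 6 were detected, led by the keratins KRT18 (234, 284 and 273 TPM), KRT19 (39.7 ± 3.93 TPM) and KRT8 (24.2 ± 4.81 TPM, or 41.3 by the longest transcript), with EPCAM at 0.532 ± 0.240 and CDH1 at 1.08 ± 0.286 TPM. CDH2, the cadherin of mesenchymal and heart cells, was the highest cadherin at 242, 155 and 153 TPM. Of 18 immune genes 2 were detected, CD14 at 1.78, 1.96 and 5.33 TPM and CSF1R at 1.35 ± 0.332 TPM, and PTPRC stood at 0.571 ± 0.164 TPM. Neural genes were detected in 4 of 16 cases, with SNAP25 highest at 7.78 ± 1.35 TPM, adipocyte and hepatocyte genes in 2 of 12 and erythroid genes in none of 8. Of 12 pluripotency and germ cell genes 3 were detected: LIN28A at 5.87, 5.71 and 4.96 TPM, TERT, the catalytic subunit of telomerase, at 5.05, 5.06 and 3.75 TPM, and POU5F1 at 2.25, 2.23 and 5.17 TPM. POU5F1 has processed copies and shares exon bases with another gene, so its level is uncertain, and SOX2 and NANOG had no read. In bulk RNA a low level cannot tell a few cells at a high level from many at a low one. Over the 14 lineage lists 89 of 257 genes (34.6%) were detected, against 58.4% of all coding genes.

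**Figure D2:**
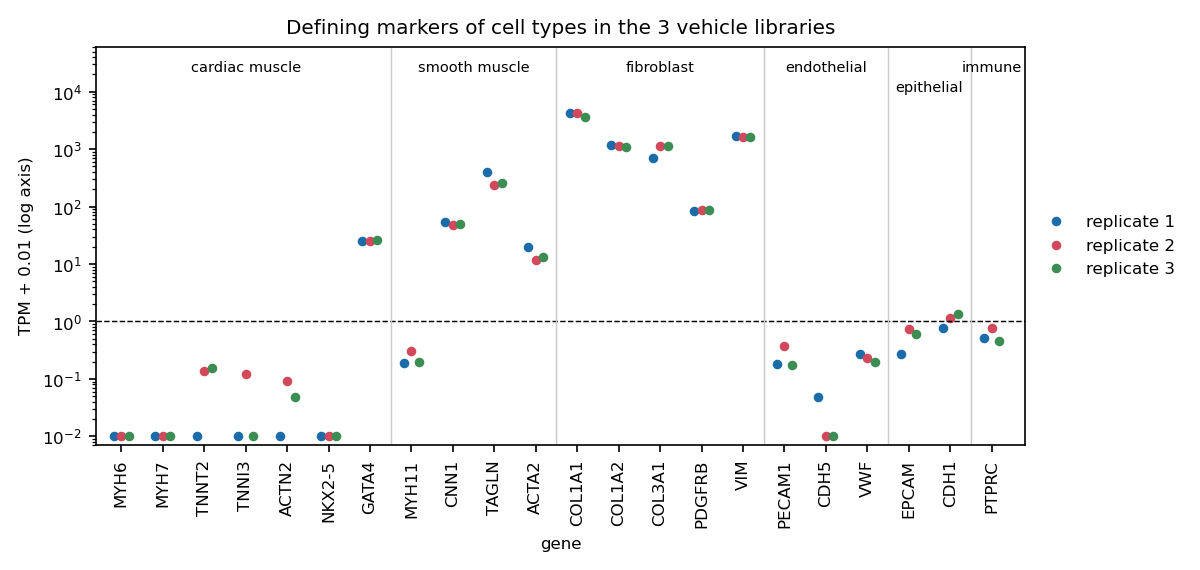
TPM plus 0.01 on a log axis (y axis) of the defining markers of 6 cell types (x axis), 1 point per vehicle library, with a dashed line at 1 TPM. Fibroblast markers and 3 of 4 smooth muscle markers lay above the line in every library, and among 7 cardiac markers GATA4 alone did; points at the foot of the axis are counts of 0.

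The families chosen here with a muscle form and a general form mostly repeated the picture of the actins. Which member is the muscle form was set after values had been seen. Tropomyosins were not among these families, and there TPM2, given above with the smooth muscle genes, was the highest at 1193 TPM. Sarcomeric and smooth muscle forms held 0.122% ± 0.0127 of class II myosin heavy chain TPM, of which MYH9 had 2983, 3239.7 and 2663 TPM and MYH10 111 ± 6.03 TPM. ACTN4 and ACTN1, the non-muscle alpha-actinins, had 848 ± 80.9 and 386 ± 43.5 TPM (for ACTN1 624 by the longest transcript). The heart and muscle form of the adenine nucleotide translocase, SLC25A4, stood at 11.2, 8.73 and 9.10 TPM against 1431, 1365 and 1475 TPM for SLC25A5, and it held 0.510% ± 0.0682 of its family. CKM and CKMT2 together held 6.27% ± 0.998 of creatine kinase TPM, with CKB, the brain form, at 37.3 ± 3.83 TPM; CKMT1A and CKMT1B are near-identical copies and had no read. ENO3, the muscle enolase, had 3.92 ± 1.04 TPM (7.86 by the longest transcript) and made up 0.132% ± 0.0411 of the enolases. Ryanodine receptors, all of it RYR3 (0.543 ± 0.174 TPM), held 0.891% ± 0.293 of calcium release channel TPM, where the inositol trisphosphate receptor ITPR3 led at 48.7, 53.9 and 48.2 TPM. Among the chosen families lactate dehydrogenase was the exception. LDHB, the form that heart muscle favours, had 807, 886 and 1040.0 TPM and held 56.3% ± 1.24 of the family. LDHA had 606, 729 and 785 TPM. Which of the pair leads depends on the gene length used, since by the longest transcript LDHB held 49.3% ± 1.26 and LDHA had 1292 TPM.

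Cell cycle genes were high in all libraries. All 20 genes of the G2 and mitosis list were detected, against 58.4% of all coding genes. Their median was 262 TPM, against 5.40 TPM over all coding genes. CDC20, the activator of the anaphase-promoting complex, had 816, 786 and 813 TPM, CCNB1, cyclin B1, 559, 517 and 594 TPM, TOP2A, the topoisomerase of dividing cells, 347, 403 and 391 TPM and MKI67, the proliferation antigen Ki-67, 201 ± 12.1 TPM. Of 22 G1 and S phase genes 21 were detected, with PCNA, the sliding clamp of DNA replication, at 793, 874 and 965 TPM and the helicase subunits MCM2 to MCM7 at 193 to 469 TPM (MCM6 lowest, MCM7 highest). CCND2, cyclin D2, was the exception with no read (limit 0.0969 TPM), while CCND1 had 153 ± 21.8 and CCND3 115 ± 13.3 TPM (for CCND3 199 by the longest transcript). Inhibitors of the cycle were expressed too: CDKN2A, which encodes p16 and ARF, had 381, 415 and 407 TPM (mean 962 by the longest transcript), CDKN1A, p21, 238, 224 and 210.5 TPM and CDKN1B, p27, 209 ± 3.38 TPM. Genes that drive the cycle and genes that restrain it were thus both among the well expressed ones.

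The NRF2 pathway, which the study goes on to activate, was present at baseline. NFE2L2, which encodes NRF2, had 71.2, 75.2 and 81.7 TPM, and KEAP1, the adaptor that marks NRF2 for degradation, 137, 147 and 132 TPM. NFE2L1 stood at 266 ± 21.5 TPM, the small MAF partners MAFF, MAFG and MAFK at 50.1 ± 1.93, 46.04 ± 3.85 and 45.5 ± 9.83 TPM, and BACH1, a repressor at the same sites, at 37.6 ± 8.29 TPM. Of 27 NRF2 target genes 24 (88.9%) were detected, against 58.4% of all coding genes. The median was 87.9 TPM over the list and 5.40 TPM over all coding genes. NQO1, a quinone reductase, had 577, 572 and 673 TPM and TXNRD1, thioredoxin reductase, 498, 387 and 421 TPM. Enzymes of glutathione synthesis and cystine uptake were lower, with GCLM at 96.1 ± 4.86, GCLC at 17.7 ± 1.53 (28.5 by the longest transcript) and SLC7A11 at 18.1 ± 1.66 TPM. HMOX1, heme oxygenase 1, had 43.6 ± 3.76 TPM. AKR1C3, an aldo-keto reductase, had 29.3 ± 14.4 TPM (52.2 by the longest transcript). Its relatives AKR1C1 and AKR1C2, near-identical to each other, had 5.94 ± 0.610 and 0.616 ± 0.380 TPM, so reads may be split between them. AKR1B10, ABCC2 and AKR1C2 were not detected.

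Of 22 genes linked to doxorubicin action, transport and metabolism 17 (77.3%) were detected, against 58.4% of all coding genes. The topoisomerases that the drug poisons were both present, TOP2A at 381 ± 29.2 TPM and TOP2B, the form that non-dividing cells express too, at 85.03 ± 7.84 TPM. ABCB1, the efflux pump P-glycoprotein, had no read (limit 0.119 TPM), whereas ABCC1, another efflux pump, had 83.3, 93.01 and 81.9 TPM and ABCG2 7.25 ± 1.19 TPM. CBR1, a carbonyl reductase that reduces doxorubicin, had 137, 121 and 134 TPM and CBR3 49.3 ± 7.43 TPM. SLC22A16, a carnitine and drug transporter, was not detected at 0.0183 ± 0.0316 TPM. Antioxidant enzymes stood at 618 ± 17.1 TPM for GPX1, the highest of the list, 329.9 ± 28.3 for SOD1, 304 ± 20.6 for GPX4 and 40.1 ± 3.84 for CAT. GPX1 is typed as a polymorphic pseudogene in the annotation. CYBB, the phagocyte oxidase, had no read.

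Of 407 receptor genes in 13 lists, 211 (51.8%) were detected, against 58.4% of all coding genes. Growth factor receptors were led by AXL, the receptor of GAS6, at 1285, 1301 and 1065 TPM, well above EPHA2, an ephrin receptor (312, 269 and 245 TPM), MET, the receptor of HGF (204, 160.1 and 148 TPM), FGFR1 (78.4 ± 4.22 TPM) and EGFR (67.00, 76.7 and 66.5 TPM). GAS6 itself had 85.6 ± 9.33 TPM (138 by the longest transcript) and HGF no read. IGF1R stood at 14.4 ± 0.838 TPM, while INSR, the insulin receptor, was at 0.107, 0.0442 and 0.0409 TPM and shares no exon base with another gene. Adhesion receptors were led by ITGB1, integrin beta 1, at 1065, 787 and 954 TPM, with the fibronectin receptor subunit ITGA5 at 395, 350.4 and 329.5 TPM and ITGA3 at 201 ± 22.5 TPM. TNFRSF12A, the receptor of TWEAK, had 973, 653 and 618 TPM, with replicate 1 highest. FZD2, a Wnt receptor, had 460.0, 445 and 429 TPM and FZD7 165 ± 21.4 TPM. ENG, an auxiliary TGF-beta receptor, stood at 422, 329.6 and 293 TPM and TGFBR2 was even at 91.4, 90.7 and 90.9 TPM.

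G protein-coupled receptors lay lower. GPRC5A, an orphan receptor, had 175, 229 and 218 TPM, GPR176 158 ± 21.2 TPM, F2R, the thrombin receptor, 134, 140.5 and 139 TPM and LPAR1, a receptor of lysophosphatidic acid, 101, 109 and 106 TPM. OXTR, the oxytocin receptor, had 163, 91.5 and 87.98 TPM and AGTR1, the type 1 angiotensin receptor, 53.8, 42.1 and 41.4 TPM, while AGTR2 had no read. Of 35 amine receptors 6 were detected, with HRH1, a histamine receptor, at 23.5 ± 2.38 TPM. Among beta-adrenergic receptors ADRB1 had 3.14, 2.84 and 2.77 TPM and ADRB3 no read. ADRA1B had 5.53 ± 1.29 TPM and ADRA1A no read. EDNRA, the endothelin A receptor, stood at 1.47 ± 0.325 TPM and EDNRB had no read. CXCR4 had no read, although its ligand CXCL12 was made at 265, 303 and 310.3 TPM. Of the cytokine receptors IL6ST, the gp130 chain, had 122, 148 and 134 TPM and OSMR 97.8, 132 and 134 TPM. Among 48 nuclear receptors 25 were detected, led by NR2F2 (423 ± 31.2 TPM), PPARD (176 ± 13.7 TPM) and NR1H2, a liver X receptor (133 ± 7.39 TPM), with NR3C1, the glucocorticoid receptor, at 65.3 ± 8.29 TPM. Of 10 Toll-like receptors 2 were detected, TLR6 highest at 2.41 ± 0.556 TPM.

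Of 434 transcription factor genes in 16 lists, 296 (68.2%) were detected, against 58.4% of all coding genes. The share was the highest of the 4 classes of lineage, receptor, factor and secreted genes. HMGA1, a chromatin protein of proliferating cells, led the listed factors at 2117, 1803 and 1488 TPM. ATF4, the factor of the integrated stress response, had 705, 635 and 762 TPM. AP-1 members were high, with FOSL1 even at 406, 411 and 388 TPM and JUN at 341, 489 and 472 TPM. TEAD4 and TEAD3, the DNA-binding partners of YAP, had 189 ± 16.8 and 183 ± 19.6 TPM and YAP1 101 ± 7.44 TPM, and CCN1 and CCN2, known target genes of this pathway, are given with the secreted proteins. FOXM1, a factor of mitotic genes, had 380.4, 373 and 356 TPM and FOXD1, a factor of stromal progenitors, 279.5, 219 and 207 TPM. HIF1A had 358 ± 38.1 TPM. PRRX2, a mesenchymal homeobox factor, had 179 ± 29.8 TPM. Of 20 SOX factors 5 were detected, SOX12 (102 ± 13.4 TPM) well above SOX9 (15.6 ± 3.74 TPM).

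HOX genes carry the position of a cell's origin along the body axis, those of low paralog number being used toward the head and those of high number toward the tail. In the vehicle cells 27 of 39 HOX genes were detected, a share near the 68.2% of all listed transcription factors. Of all coding genes 58.4% were detected. The counts were 4 of 8 for paralogs 1 to 3, 12 of 15 for 4 to 8, 9 of 10 for 9 to 11 and 2 of 6 for 12 and 13, a grouping made after values had been seen. HOXB2 was highest at 68.7, 66.8 and 58.1 TPM, then HOXB7 at 41.4, 50.7 and 56.6 TPM, HOXC8 at 28.7, 34.9 and 33.8 TPM and HOXB9 at 22.8, 32.7 and 34.5 TPM; the ranges of HOXC8 and HOXB9 overlapped. In the HOXA cluster the highest were HOXA9, HOXA10 and HOXA11 at 18.6 ± 0.565, 15.1 ± 1.11 and 13.8 ± 2.17 TPM. HOXB13, at the tail end of its cluster, had 5.69, 6.73 and 7.34 TPM, while HOXC12, HOXC13 and HOXD12 had no read. HOXD genes below paralog 8 stayed under 1 TPM on average. With exon bases shared with no other gene as the length, HOXD4 came to 2.22 TPM in place of 0.463. HOX genes overlap antisense RNAs in places, and strand was not kept.

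**Figure D3:**
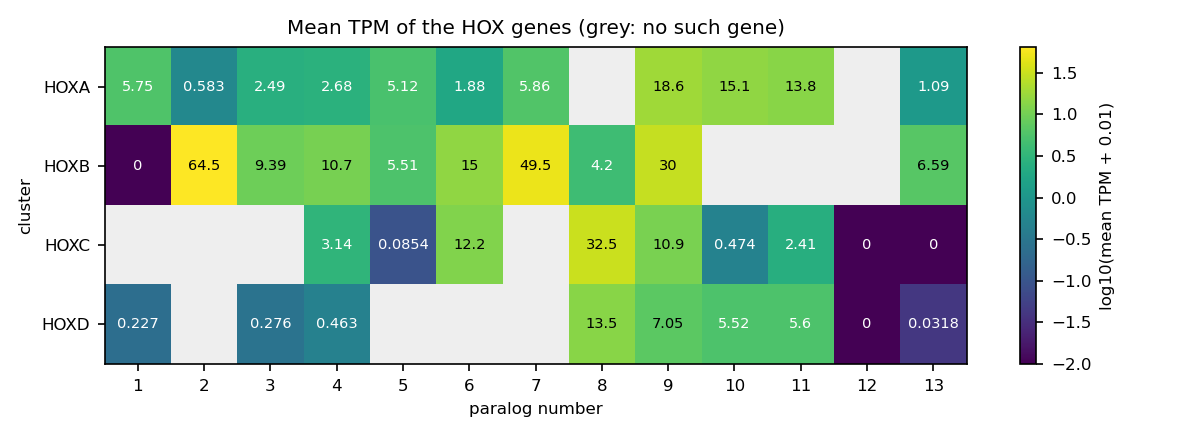
Mean TPM over the 3 vehicle libraries, printed in each cell and coloured by log10 of mean TPM plus 0.01, of the HOX genes by cluster (y axis) and paralog number (x axis). HOXB2 and HOXB7 have the highest levels, and paralogs 12 are at 0.

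Secreted proteins were detected in 225 of 486 cases (46.3%), against 58.4% of all coding genes, and the class held 4.003% ± 0.173 of TPM. Matrix proteins led. SPARC, a collagen-binding glycoprotein, had 2190.1, 1928 and 2097 TPM, FN1, fibronectin, 2309, 1561 and 1605 TPM and THBS1, thrombospondin 1, 649 ± 70.1 TPM. Of 44 collagens 24 were detected. After COL1A1, COL1A2 and COL3A1 came COL6A1 at 822, 740.1 and 636 TPM, with COL5A2 at 521, 602 and 584 TPM. LAMC1, a laminin chain, had 326, 309.8 and 306 TPM, and 15 of 17 basement membrane genes were detected. LOXL2, a collagen cross-linking enzyme, was very even at 613, 610.0 and 611 TPM. MMP2 and MMP14, matrix metalloproteinases, had 236 ± 15.4 and 217 ± 35.1 TPM, while MMP9 and MMP13 had no read. SRGN, the proteoglycan serglycin of secretory granules, had 1668, 1385 and 1578 TPM.

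Among signalling proteins CCN1 had 2899.6, 3342 and 3459 TPM and CCN2, also called connective tissue growth factor, 761, 1216 and 1273 TPM. In CCN1, CCN2 and IGFBP4 (863, 1269 and 1169 TPM) replicate 1 was the lowest. DKK1, a Wnt antagonist, had 935, 969 and 1025 TPM, GREM1, a BMP antagonist, 506, 428 and 428 TPM and FSTL1 797 ± 58.9 TPM. Wnt ligands were few: 9 of 34 ligands and antagonists were detected, with WNT5B at 266, 180.3 and 165 TPM and WNT5A at 72.96, 104 and 98.3 TPM. TGFB1 had 232, 164 and 141 TPM and BMP4 41.5 ± 1.03 TPM, and BMP2 had no read. Of 22 fibroblast growth factors 4 were detected, FGF5 at 83.5, 80.8 and 67.6 TPM, FGF2 at 73.1, 75.7 and 68.1 TPM, FGF1 at 17.4 ± 2.08 and FGF12 at 2.15 ± 0.223 TPM. Hormones and vasoactive peptides were led by STC2, a stanniocalcin (396, 296 and 292 TPM), ADM, adrenomedullin (314, 292 and 308 TPM), and EDN1, endothelin 1 (50.6, 95.2 and 109 TPM). F3, tissue factor, the starter of coagulation, had 329.8, 404 and 429 TPM, and PTX3, a pentraxin, 166, 267 and 285 TPM. Of 34 chemokines 7 were detected, and CXCL12, at 293 ± 24.3 TPM, lay far above the next, CCL2 (31.8 ± 12.6 TPM). Of 53 interleukin-family genes 16 were detected, with IL11 at 91.7, 45.3 and 40.5 TPM, LIF at 40.7, 35.3 and 30.03 TPM, IL1B at 12.01 ± 2.70 and IL6 at 5.66 ± 0.874 TPM. IGF1 was listed at 0, in a gene most of whose exon bases another gene shares.

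**Figure D4:**
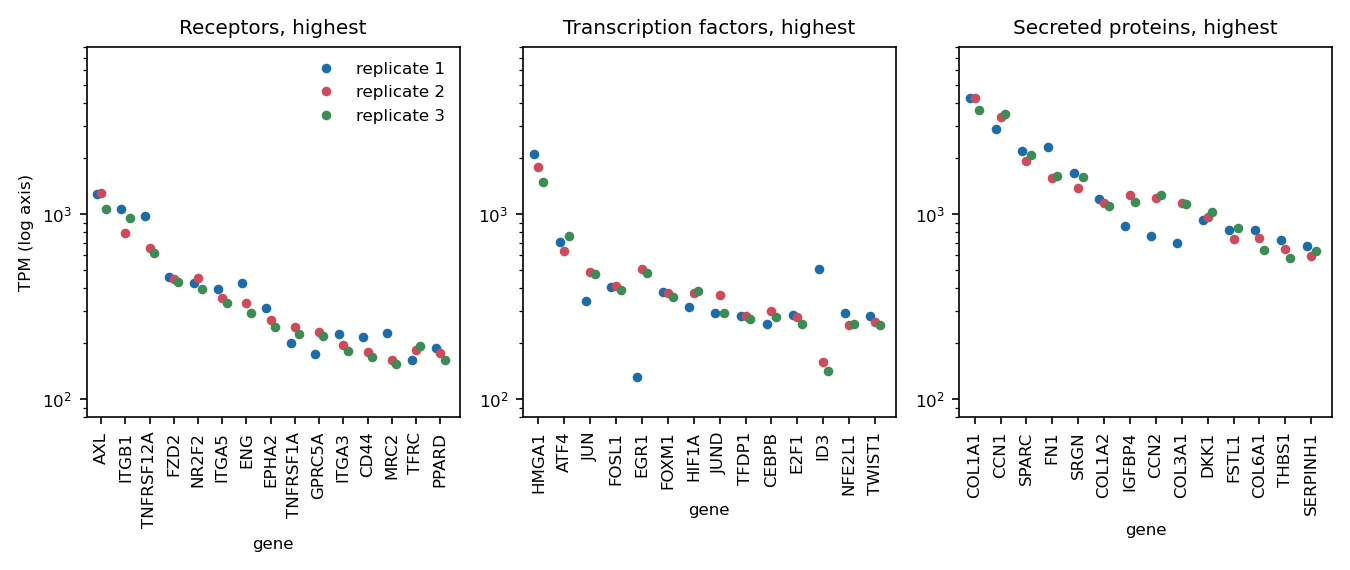
TPM on a log axis (y axis) of genes among the 15 with the highest mean in the receptor, transcription factor and secreted protein lists (x axes), 1 point per vehicle library. AXL, HMGA1 and COL1A1 lead the listed genes of their classes, and in EGR1 and ID3 replicate 1 lies far from the other libraries.

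Non-coding RNAs held little of the total, coding genes taking 96.9% of TPM and 99.1% of counts. The highest long non-coding genes were PRR11-AS1 at 268, 270.0 and 262 TPM, NORAD, a cytoplasmic RNA induced by DNA damage, at 209, 227 and 214 TPM, and the small nucleolar RNA host genes SNHG29 (206, 198 and 202 TPM, mean 325 by the longest transcript) and SNHG1 (138, 97.9 and 140.3 TPM). PRR11-AS1 shares 30.2% of its exon bases with another gene, so in data without strand its reads may belong to that gene. GAS5, also a host gene, had 133, 73.7 and 103 TPM (mean 157 by the longest transcript). MALAT1 and NEAT1, long RNAs that stay in the nucleus, were at 32.4, 28.9 and 16.9 TPM and 16.8, 11.4 and 9.04 TPM; libraries were made from polyadenylated RNA.

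Some zeros cannot be read as silence. EEF1G, a subunit of the elongation factor complex needed by every cell, was listed at 0 in all libraries, and 99.9% of its exon bases are also exon bases of another annotated coding gene. None of 295 coding genes whose exon bases are all shared with other genes was detected, and 88.5% of them had no read. Of 387 coding genes that share over 75% but not all, 35 (9.04%) were detected, against 73.2% of those that share up to 25% and 53.2% of 11179 genes that share none. The counting settings for reads that lie in more than 1 gene are not stated in the labels or headers, and their part in these zeros was not tested. ALDOA, an aldolase, at 21.01, 18.9 and 22.1 TPM, EIF4A1, an RNA helicase of initiation, at 8.31, 5.13 and 5.47 TPM (mean 13.6 by the longest transcript), and MIF, a cytokine, at 4.45, 4.79 and 4.24 TPM, also share large parts of their exons. Of genes named here as having no read, MYH6, NKX2-5, RYR2, ABCB1, CXCR4 and BMP2 share no exon base with another gene and MYH7 shares 2.33%, whereas IGF1 shares 82.4%. This check, with its limits and the genes named in it, was added after the zero in EEF1G had been seen.

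The 3 libraries were close for most genes. Over all detected genes the median coefficient of variation (SD over mean) was 10.2%. Counting error alone, from the mean count of each gene, gives 4.45%. That value is somewhat too high to set beside the other, since the median SD of 3 values lies below the true SD. Over 7287 detected genes of at least 20 TPM it was 7.65%, and 67.1% of these genes varied by under 10%. Genes of lowest variation by the naming rule included RPN1, a subunit of the enzyme that adds N-linked sugars, at 425, 425 and 425 TPM, TYMS, thymidylate synthase, at 276, 277 and 277 TPM, and UQCRFS1, an iron-sulfur subunit of respiratory complex III, at 120.4, 120.3 and 121 TPM. They varied by 0.0816, 0.246 and 0.276%, below the 1.15, 1.81 and 2.31% of counting error. Picked as the lowest of 7287 genes on these same values, they are not shown to be steadier than others. By the same rule 6 of the 10 most variable genes were microRNA genes of 60 to 99 bases with 1 to 21 reads per library, and ID3 and ID1 were among the other 4.

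Among genes of at least 20 TPM, 99 varied by over 30%, and in 71 of these replicate 1 lay farthest from the others, against 12 for replicate 2 and 16 for replicate 3. The 20 most variable coding genes, listed after values had been seen, all had replicate 1 at one end: highest in 15 and lowest in 5. ID3 and ID1, inhibitors of helix-loop-helix factors and known targets of BMP signalling, had 508, 158 and 142 TPM and 372, 100.1 and 131 TPM. SMAD7, an inhibitor of TGF-beta and BMP signalling, had 34.3, 18.6 and 16.2 TPM (mean 13.6 by the longest transcript), and NOG, the BMP antagonist noggin, 41.5, 20.9 and 20.02 TPM. IGFBP7 had 471, 197 and 229.9 TPM, IL11 91.7, 45.3 and 40.5 TPM, COL13A1 31.2, 16.1 and 12.7 TPM and AMH 58.1, 33.1 and 26.96 TPM. Replicate 1 was lowest in EGR1, an immediate early factor, at 131, 507 and 481 TPM, in LUM, the proteoglycan lumican, at 46.5, 84.9 and 113 TPM, in NNMT, a nicotinamide methyltransferase, at 66.9, 138 and 158 TPM, in CCL2, a chemokine, at 18.3, 33.9 and 43.2 TPM, and in AKR1C3, the aldo-keto reductase, at 14.2, 30.7 and 42.9 TPM. Without replicate 1 the mean was 150 TPM in ID3 in place of 269, 116 in ID1 in place of 201, and 494 in EGR1 in place of 373. Total counts of replicate 1 lay between those of the others, and the cause of the difference was not tested. The lists that differed most between libraries were chemokines, with a median log2 level of -0.23, 0.05 and 0.37 against the mean of the libraries, and complement and coagulation genes, with -0.22, -0.04 and 0.29.

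**Figure D5:**
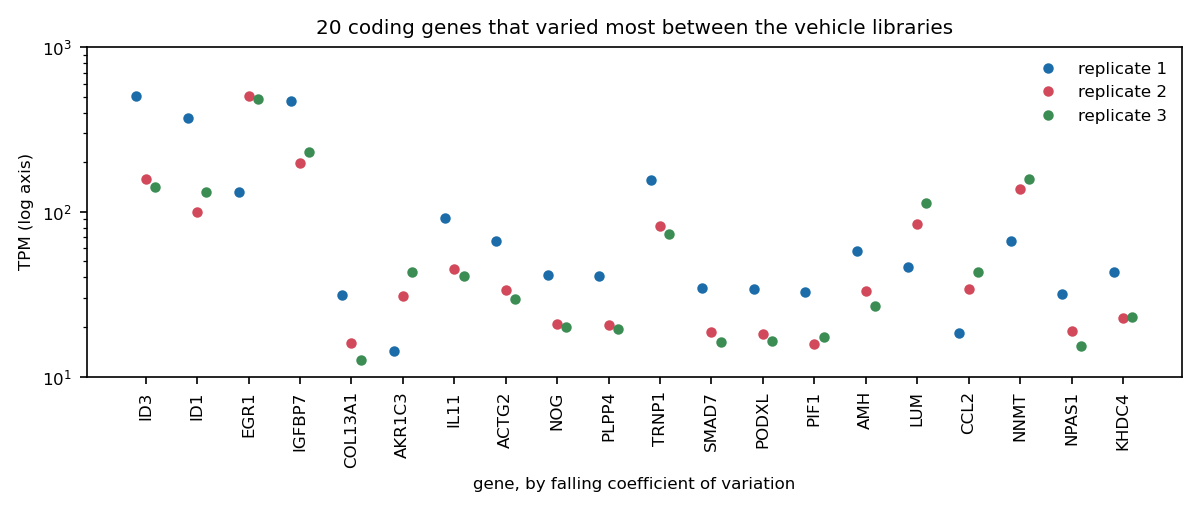
TPM on a log axis (y axis) of the 20 coding genes of at least 20 TPM with the highest coefficient of variation between the 3 vehicle libraries (x axis, by falling variation), 1 point per library. Replicate 1 is the highest library in 15 genes and the lowest in 5, and replicates 2 and 3 lie closer together.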

How the data were processed

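RNA of AC16 cells under vehicle was measured in 3 of 9 libraries, made from polyadenylated RNA with an unstranded kit, per the labels' protocols. The authors deposited whole-number read counts per Ensembl gene over merged exons, with exon length and no normalization; per the submitters' processing notes, which give no versions, the tools were STAR, featureCounts, Subread and SAMtools and the build hg38 or GRCh38. Which annotation release was used, and how reads in several genes, reads mapping to several places and strand were treated, is not given in the sources used here. Columns of the 6 treated samples were not used.

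TPM were computed from counts and the deposited exon lengths over all 58299 genes (Python 3.11.15, pandas 2.3.3, numpy 2.4.6), and the computation was tested on simulated data. Gene types came from GENCODE 29, where 58179 IDs matched, and 57717 IDs had a name. RefSeq promoters (GRCh38.p14) were matched by symbol, chromosome and strand for 15306 of 19850 coding genes, taking the most upstream start. A count of 0 allows up to 3 counts in a library, for counting error only. As alternatives, other detection limits, gene lengths, scalings (edgeR 4.0.16 TMM in R 4.3.3 for RPKM) and leaving out 1 library were tried.

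Named genes were the 30 with the highest mean TPM; in each of 84 lists (1782 genes) up to 4 with the highest mean and any not detected; all members of cardiac and gene family lists; the 10 most and 10 least variable genes of at least 20 TPM; and the 10 highest non-coding genes. Some others, chosen after their values were seen, complete a pathway or pair, such as EDNRA, DCN, TCF21, HOXA10, GCLC and GCLM. Some genes that this rule names are not reported here. The members and lists were chosen with earlier results of these data known.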

Additional observations from a re-analysis of the deposited data

How the results depend on the processing

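No paired analysis was possible because a single group was described and no test was run. The number of detected genes, 13922, ran from 10569 (at least 5 TPM) to 17628 (1 library passing), and was 10812 for RPKM of at least 1, a stricter limit because RPKM was a median 0.225 of TPM here. Detected lineage genes ran from 62 to 101, receptors from 155 to 235, transcription factors from 243 to 320 and secreted proteins from 167 to 251, each within 1.5 times its value. Genes with no read went from 32533 to 39293 when up to 3 counts in each library were allowed. The share of the 10 most abundant genes was 6.41% without length scaling and 7.11% over coding genes only, and that of the 100 most abundant 18.1% without length scaling, 21.4% over coding genes and 21.8% by the longest transcript. Without length scaling 4 of the 10 and 58 of the 100 most abundant genes were shared with the order by TPM, and by the longest transcript 8 and 82. Exon bases shared with no other gene as length, chosen after seeing the data, gave 14112 detected genes and kept 93 of the 100. By the longest transcript 23 of 502 levels of single genes were over 1.5 times higher and 1 was over 1.5 times lower, up to 2.40 times in CDKN2A (962 against 401 TPM), and the share of LDHB among lactate dehydrogenases went from 56.3 to 49.3%. By unshared exon bases 10 of 501 were over 1.5 times higher. Of other genes given above, CBR3 came to 80.02 TPM, ALDOA to 41.8, EIF4A1 to 11.5, MIF to 11.1 and HOXD4 to 2.22. The effect of gene length on family shares and on genes outside the naming rule was added after seeing the data. The median coefficient of variation was 7.65% at 20 TPM and over, and 6.97 to 9.72% without 1 replicate. Fewer libraries lower this median by construction, so the values without 1 replicate are not directly comparable. Without replicate 1, CCL5 fell from 1.83 to 0.812 TPM, KRT14 from 3.97 to 2.51 and ID3 from 269 to 150, and without replicate 3, CD14 fell from 3.03 to 1.87. A mean of 3 cannot move by over 1 SD when 1 library is left out, so that measure says nothing of stability for single genes. Depth limits genes under about 1 TPM, where 1 read on 1000 bases is worth 0.214 to 0.231 TPM.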

Other observations

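Several gene groups outside the comparisons above were also well expressed under vehicle. Of 14 genes of antigen presentation 11 were detected: HLA-B and HLA-C, heavy chains of class I, had 568 ± 45.6 and 618 ± 51.9 TPM, and B2M, their light chain, 350.5 ± 55.1 TPM (631 by the longest transcript), while HLA-DRA of class II had no read. These HLA genes are polymorphic and alike, so reads may be split or lost among them. CAV1, the scaffold of caveolae, had 802, 967 and 982 TPM, and CAV3, its muscle form, was not detected at 0.115, 0 and 0.109 TPM. Of 16 intermediate filament genes 14 were detected; LMNA, a nuclear lamin, had 866, 895 and 781 TPM (mean 1319.5 by the longest transcript), and INA, a neuronal filament protein, 51.8, 47.9 and 44.1 TPM, whereas DES, the desmin of muscle, had 2.27, 4.22 and 3.39 TPM. Of 19 connexins 5 were detected. Over all coding genes the share detected was 58.4%. These values were not compared with any other cells.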
